A study of Homo sapiens with 12 samples.

Results

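The IL6 family of cytokines was examined in MDA-MB-231 cells through 10 genes of the deposited expression table. They were 4 ligands (IL6, IL11, LIF and CLCF1), 4 receptor chains (IL6ST, IL6R, OSMR and LIFR), the transcription factor STAT3 and its feedback inhibitor SOCS3. Each was found by its symbol in 1 of the 24331 features of the table, and all 10 were among the 11256 features with a mean of at least 1 FPKM (fragments relative to transcript length and to the mapped total of the library). MDA-MB-231 is an established human breast cancer cell line. WT cells and ΔCRE cells, in which a regulatory element with NFAT and NF-kB sites in the ETS1 promoter was deleted with CRISPR/Cas9 and a pair of guide RNAs, were sampled at 0, 6 and 24 h of PMA/Ionomycin (P/I). PMA is a phorbol ester that activates protein kinase C, and Ionomycin is a calcium ionophore. Each of the 6 conditions had 2 biological replicates, which gave 12 RNA-sequencing libraries. The sources used here do not state how many clones the ΔCRE libraries came from, so the deletion and a clone cannot be told apart.

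IL6 family cytokines signal through receptor complexes that contain the shared chain gp130, which IL6ST encodes. The partner chain sets which ligand is bound: IL6R binds IL6, LIFR binds LIF, and OSMR joins gp130 in a receptor for oncostatin M. The complexes activate JAK kinases and STAT3, and STAT3 induces SOCS3, which shuts the receptor off. In breast cancer cells, IL6, LIF and IL11 are known as cytokines that tumour cells secrete and respond to.

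The library labelled ΔCRE 0 h replicate 1 stood apart from the other 11 and was left out of the tests below. Its FPKM summed to 1423335 against 566255 to 651080 in the others, and its correlation with ΔCRE 0 h replicate 2 was 0.867 against 0.978 to 0.984 between replicates of the other 5 conditions (Pearson r of log2 values, across genes). Markers of gut epithelium (CDX1, CDX2, VIL1, LGALS4, PHGR1 and REG1A) summed to 6932 FPKM in it and to between 0 and 0.318 in the other 11 libraries, in which 6 of 6 were under 1 FPKM. Luminal markers (ESR1, PGR, GATA3, CDH1 and EPCAM) summed to 1193 FPKM in it against 3.97 to 6.22, with 3 of 5 under 1 FPKM in all 11. Of that sum EPCAM made 1139 and CDH1 52.3 FPKM, whereas ESR1 was at 0, PGR at 0.0128 and GATA3 at 2.38, within the 1.76 to 3.32 of the other libraries. Leukocyte markers (PTPRC, CD3E, CD14, CD79A and LYZ) summed to 386.5 against 0.300 to 0.993, with 5 of 5 under 1 FPKM. LYZ made 361.0 and CD14 24.0 FPKM of that sum, and PTPRC (0.476), CD3E (0.565) and CD79A (0.508) were under 1 FPKM in this library too. Fibroblast markers (COL1A1, DCN, LUM and PDGFRB) summed to 36.2 against 1.48 to 3.22, with DCN and LUM at 0 in the other 11. The 5 markers of MDA-MB-231 cells (VIM, CD44, SPARC, MSN and CAV1) were at 1 FPKM or more in all 11 libraries and summed to between 2093 and 3224, and to 1490 in ΔCRE 0 h replicate 1. In the latter VIM (1199.5 against 1543.1 to 2539.0) and MSN (56.2 against 166.4 to 334.8) were lower. CD44 (76.2) and CAV1 (113.3) lay within the range of the other 11, and SPARC was higher (44.8 against 5.56 to 12.6). ETS1, whose promoter was edited, was at 24.0 and 23.7 FPKM in WT cells at 0 h, at 139.2 and 145.2 at 6 h and at 36.2 and 39.7 at 24 h. In ΔCRE cells it was at 16.5 at 0 h (5.08 in the library set apart), at 62.8 and 62.2 at 6 h and at 29.3 and 30.7 at 24 h, below WT cells at each time (limma, adjusted p = 0.0132, 2.0e-05 and 0.0153). The call at 0 h was lost without WT 0 h replicate 1 (limma, adjusted p = 0.0541), and that at 24 h without WT 24 h replicate 2 or either ΔCRE 24 h library (limma, adjusted p = 0.0667 to 0.102).

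The promoters of IL6 and IL11 are shown because these genes carried the largest genotype differences among the ligands, in opposite directions. They come from the RefSeq promoter table (GRCh38.p14), which holds 8 of the 10 genes, and each was found once in GRCh37, the assembly of hg19 used in the study. LIF and CLCF1 were not among the 8. The IL6 stretch lies at chr7:22766569-22766765 (plus strand), directly upstream of the measured feature. It lies inside the annotated span of the IL6 gene, which starts at 22765503. The capitals of the IL6 stretch mark a C/EBP motif and an NF-kB motif. The IL11 stretch lies at chr19:55881832-55882081 (minus strand), directly upstream of the gene, and its capitals mark an AP-1 motif.
IL6: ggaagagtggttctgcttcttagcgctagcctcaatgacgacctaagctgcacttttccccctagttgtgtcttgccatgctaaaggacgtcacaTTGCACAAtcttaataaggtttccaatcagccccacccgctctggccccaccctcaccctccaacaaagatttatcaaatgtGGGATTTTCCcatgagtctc
IL11: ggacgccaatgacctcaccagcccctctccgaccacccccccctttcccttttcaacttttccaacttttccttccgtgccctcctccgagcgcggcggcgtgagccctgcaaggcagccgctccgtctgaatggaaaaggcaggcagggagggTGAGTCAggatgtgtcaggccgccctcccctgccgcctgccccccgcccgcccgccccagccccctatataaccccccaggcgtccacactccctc

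Motifs were searched on both strands of the 250 bases before each RefSeq start, from which positions are counted. For IL6 the end of that window lies inside the measured feature and is not printed, so the IL6 stretch ends before the RefSeq start. The windows of OSMR, IL6R, STAT3 and IL6ST also run into the measured feature. Inside it lie the C/EBP motif of OSMR, its NFAT cores at -78 to -74 and -36 to -32, and the NFAT core of STAT3. These motifs are therefore not upstream of the measured feature. RefSeq lists 3 promoters for LIFR and 2 for SOCS3, and only the first listed of each was searched. The SOCS3 window, chr17:76357007-76357256 (minus strand), does not adjoin the measured feature, which ends at 76356158. The bases directly upstream of the measured SOCS3 feature were therefore not searched. The AP-1 motif TGANTCA was in 1 of the 8 promoters, that of IL11 (bases -96 to -90), and in 6.57% of all 35116 promoters of the table. The NF-kB motif was in 2 of 8, IL6 (-73 to -64) and IL6ST (-53 to -44), and in 9.96% of all. The C/EBP motif TTGCNNAA was in 2 of 8, IL6 (-155 to -148) and OSMR (-73 to -66), and in 9.05% of all. The STAT motif TTCNNNGAA was in 1 of 8, LIFR (-165 to -157), and in 6.57% of all. The ETS core CGGAAG was in 1 of 8, IL11 (-179 to -174, overlapping an NFAT core by 1 base), and in 16.5% of all. The NFAT core GGAAA was in 6 of 8, with 4 copies each for IL11 and SOCS3, 3 each for IL6, OSMR and LIFR and 1 for STAT3. It was also in 55.6% of all promoters, and in IL6 the copy at -68 to -64 lies within the NF-kB motif. The cAMP response element motif TGACGTCA, which is not the core-regulatory element deleted in ΔCRE cells, was in 0 of 8 and in 1.65% of all. These matches describe letters in the window and are not binding data.

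The first comparison asked how the family responded to P/I. In WT cells all 4 ligands were higher at 6 h than at 0 h and then fell, while IL6R and OSMR reached their highest levels at 24 h and LIFR and SOCS3 fell. Of the 10 genes, 7 were higher and 2 lower at 6 h than at 0 h, where 23.3% of the 11256 features tested were higher and 21.1% lower (limma on log2(FPKM + 1), adjusted p under 0.05). The median difference of the 10 genes was 0.80 on the log2 scale, against -0.0014 over all features. Rescaling to TPM, in which every library has the same sum, shifted the median of all features by -0.12 and the share of higher calls among all calls from 52.5% to 35.0%. Differences on the log2(FPKM + 1) scale understate the change of genes with low FPKM, such as IL6 at 0 h.

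**Figure D1:**
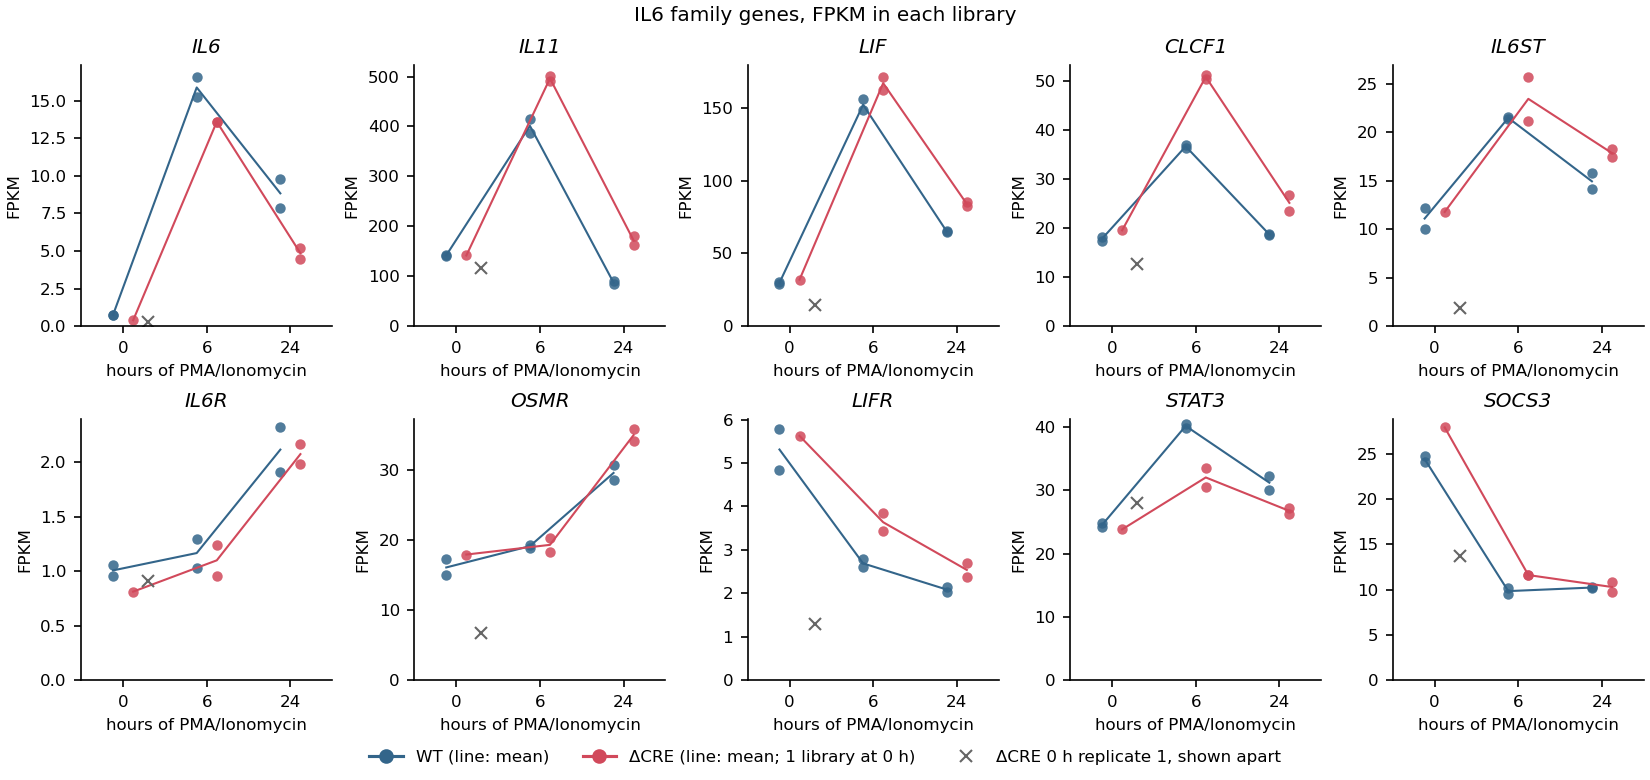
FPKM (linear axis from 0) of the 10 IL6 family genes against hours of PMA/Ionomycin, 1 point per library, with lines through the means of WT (blue) and ΔCRE (red) cells and a grey cross for ΔCRE 0 h replicate 1, which the lines leave out. IL6, IL11, LIF, CLCF1, IL6ST and STAT3 were highest at 6 h, IL6R and OSMR at 24 h, and LIFR and SOCS3 at 0 h in both genotypes.

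IL6, the cytokine that names the family (hg19, chr7:22765503-22771621, plus strand), was at 0.740 and 0.774 FPKM at 0 h, at 15.2 and 16.5 at 6 h and at 9.79 and 7.87 at 24 h. The 3 time points did not overlap, and IL6 went from the lowest of the 10 genes at 0 h to a level 21.0 times as high at 6 h. The difference of 6 h from 0 h was 3.26 ± 0.10 (SE) on the log2 scale (limma, adjusted p = 1.0e-07), and that of 24 h from 6 h was -0.78 (limma, adjusted p = 4.95e-04). The antisense gene IL6-AS1 and the antisense gene STEAP1B overlap the locus, and whether fragments were assigned by strand is not given in the sources used here.

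IL11, a ligand that also signals through gp130 (chr19:55875750-55881831, minus strand), was at 143.3 and 140.7 FPKM at 0 h, at 414.9 and 387.8 at 6 h and at 90.5 and 84.1 at 24 h. It had the highest FPKM of the 10 genes in each of the 6 conditions, and in WT cells its level at 24 h lay below that at 0 h. The difference of 6 h from 0 h was 1.49 ± 0.06 (limma, adjusted p = 7.4e-07) and that of 24 h from 0 h was -0.70 (limma, adjusted p = 4.8e-05). LIF, leukaemia inhibitory factor (chr22:30636442-30642748, minus strand, with the antisense genes LIF-AS1 and LIF-AS2 over it), was at 30.5 and 29.2, then at 156.1 and 148.5, then at 64.7 and 65.5 FPKM. It ranked second in every condition and kept 2.18 times its starting level at 24 h, with a difference of 2.31 ± 0.05 at 6 h and of 1.10 at 24 h from 0 h (limma, adjusted p = 1.44e-08 and 1.37e-06). CLCF1, cardiotrophin-like cytokine factor 1, was at 18.3 and 17.4, then at 37.1 and 36.4, then at 18.7 and 18.8 FPKM, so it was higher at 6 h by 1.0 ± 0.07 (limma, adjusted p = 8.8e-06) and back near its starting level at 24 h. The feature that carries CLCF1 runs over chr11:67085310-67159158, beyond the annotated gene (chr11:67131639-67141648, minus strand) and across RAD9A and POLD4, so its FPKM is uncertain.

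Among the receptor chains, IL6ST, which encodes gp130 (chr5:55230923-55290850, minus strand), was at 10.01 and 12.2 FPKM at 0 h, at 21.4 and 21.6 at 6 h and at 14.1 and 15.8 at 24 h. It was higher by 0.90 ± 0.11 at 6 h (limma, adjusted p = 3.2e-04) and by 0.40 at 24 h (limma, adjusted p = 0.0146). The 24 h call was lost without WT 0 h replicate 1 (limma, adjusted p = 0.0930) or without WT 24 h replicate 2 (limma, adjusted p = 0.0886). The fall in IL6ST from 6 to 24 h, of -0.50, was lost without WT 24 h replicate 1 (limma, adjusted p = 0.0503) and with TPM (limma, adjusted p = 0.0511).

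IL6R, the receptor chain for IL6 (chr1:154377669-154441926, plus strand), was at 1.05 and 0.960 FPKM at 0 h, at 1.30 and 1.03 at 6 h and at 2.32 and 1.91 at 24 h. The groups at 0 and 6 h overlapped, and both 24 h libraries lay above them, with a difference of 0.63 from 0 h (limma, adjusted p = 0.0019). OSMR, the oncostatin M receptor chain (chr5:38845960-38945698, plus strand, with RICTOR overlapping on the other strand), was at 14.96 and 17.2, then at 18.9 and 19.3, then at 28.5 and 30.7 FPKM. The difference at 24 h was 0.84 (limma, adjusted p = 5.6e-05). The smaller one at 6 h, 0.24 ± 0.08 (limma, adjusted p = 0.0396), was lost with TPM (limma, adjusted p = 0.312), with quantile normalization and without any 1 of WT 0 h replicate 1, the 2 WT 6 h, the 2 WT 24 h and the 2 ΔCRE 24 h libraries (limma, adjusted p = 0.0508 to 0.202). LIFR, the LIF receptor chain (chr5:38474770-38608456, minus strand), was the receptor that fell, from 4.84 and 5.79 to 2.60 and 2.78 and then to 2.03 and 2.14 FPKM. It differed from 0 h by -0.77 ± 0.10 at 6 h (limma, adjusted p = 3.6e-04) and by -1.03 at 24 h (limma, adjusted p = 5.5e-05).

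In the STAT3 arm, STAT3 (chr17:40465342-40540558, minus strand) was at 24.9 and 24.1 FPKM at 0 h, at 40.4 and 39.9 at 6 h and at 32.3 and 30.1 at 24 h. SOCS3 (chr17:76352859-76356158, minus strand) was at 24.8 and 24.1, then at 10.2 and 9.51, then at 10.3 and 10.2 FPKM. The pair began at levels that overlapped and moved apart: STAT3 was higher at 6 h by 0.69 ± 0.06 (limma, adjusted p = 5.4e-05), and SOCS3 was lower, with a difference of -1.23 ± 0.06 (limma, adjusted p = 2.0e-06). SOCS3 stayed at 41.8% of its starting mean at 24 h, with a difference of -1.18 (limma, adjusted p = 2.5e-06).

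Over the WT time course, 6 of the 10 genes were higher and 3 lower at 24 h than at 0 h, with CLCF1 the gene that did not pass the test, where 26.5% of all features were higher and 28.2% lower. The median of the 10 genes was 0.37 against -0.020 over all features. From 6 to 24 h, 2 genes were higher (IL6R and OSMR) and 6 lower, where 20.5% of all features were higher and 26.3% lower. Here the median of the 10 genes was -0.43 against -0.036, and TPM shifted that of all features by 0.10 and moved the share of higher calls from 43.7% to 64.3%. LIFR, at -0.26, missed the threshold in this interval (limma, adjusted p = 0.0592) and passed it without either WT 0 h library (limma, adjusted p = 0.0391 and 0.0395), with a pseudocount of 0.1, with quantile normalization, with the replicate block, without the trend and in a fit of the 2 groups alone (limma, adjusted p = 0.0114 to 0.0475). A fit of all 12 libraries, with a larger shared spread, called 6 of the 10 genes between 0 and 6 h (IL6, IL11, LIF, CLCF1, STAT3 and SOCS3), 4 between 0 and 24 h and 3 between 6 and 24 h.

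**Figure D2:**
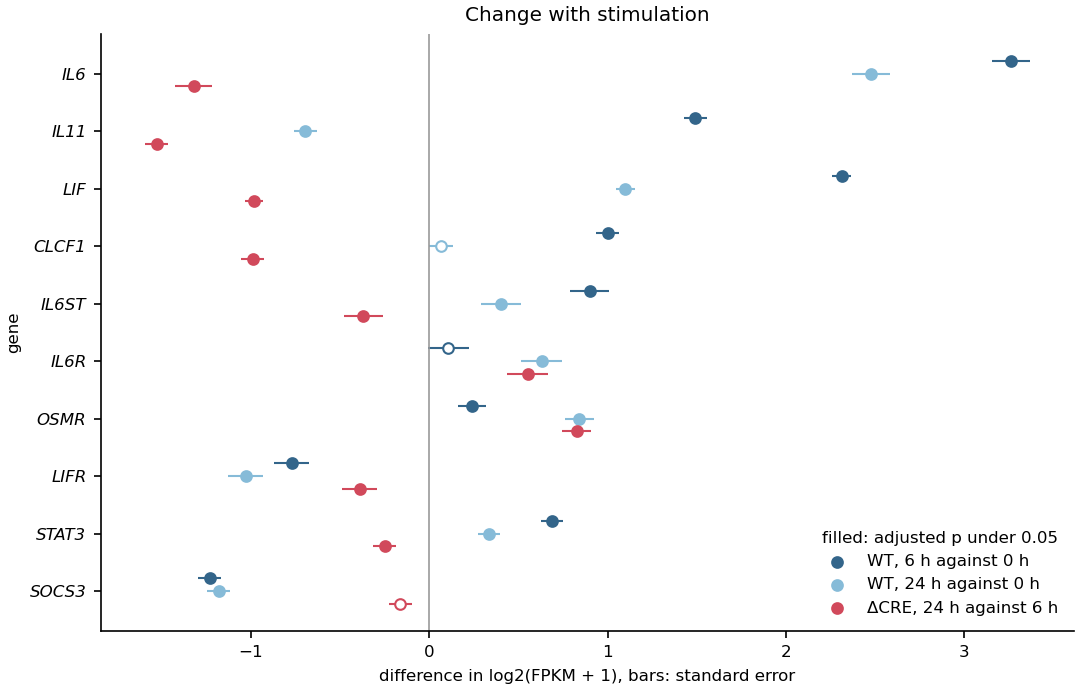
Differences in log2(FPKM + 1) for the 10 genes, with bars for 1 standard error, between WT cells at 6 and 0 h (dark blue), WT cells at 24 and 0 h (light blue) and ΔCRE cells at 24 and 6 h (red); filled points had an adjusted p under 0.05. IL6 had the largest difference at 6 h, 3.26, and SOCS3 the lowest, -1.23.

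In ΔCRE cells the 4 ligands were likewise highest at 6 h. IL6 was at 0.392 FPKM at 0 h, at 13.6 and 13.6 at 6 h and at 5.22 and 4.48 at 24 h. IL11 was at 141.6, then at 490.9 and 501.8, then at 179.7 and 163.6 FPKM. At 24 h both IL11 libraries of ΔCRE cells lay above their 0 h library, whereas those of WT cells lay below theirs.

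LIF went from 32.0 to 171.6 and 162.6 and then to 85.4 and 82.7 FPKM, and CLCF1 from 19.6 to 51.4 and 50.5 and then to 26.8 and 23.6. IL6ST went from 11.8 to 21.2 and 25.7 and then to 17.4 and 18.3 FPKM. Among the other receptors, IL6R went from 0.812 to 1.24 and 0.959 and then to 2.17 and 1.98, OSMR from 17.9 to 20.3 and 18.3 and then to 34.2 and 35.9, and LIFR from 5.63 to 3.43 and 3.84 and then to 2.37 and 2.71. STAT3 went from 23.8 to 33.5 and 30.5 and then to 27.2 and 26.3, and SOCS3 from 27.9 to 11.6 and 11.6 and then to 10.8 and 9.76 FPKM. In these libraries, too, the ligands, IL6ST and STAT3 were highest at 6 h and IL6R and OSMR at 24 h.

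With the 1 remaining library of ΔCRE cells at 0 h assumed to vary like the other groups, 6 of the 10 genes were higher and 2 lower at 6 h, where 16.8% of all features were higher and 13.0% lower. The differences were 3.39 for IL6, 1.80 for IL11, 2.35 for LIF, 1.34 for CLCF1, 0.93 for IL6ST, 0.41 for STAT3, -0.52 for LIFR and -1.20 for SOCS3 (limma, adjusted p between 6.2e-08 and 0.0125). The call for LIFR was lost without ΔCRE 6 h replicate 1 (limma, adjusted p = 0.0517). The median of the 10 genes was 0.67 against 0.0022 over all features, and TPM shifted the latter by -0.13 and the share of higher calls from 56.4% to 31.8%. With ΔCRE 0 h replicate 1 included, 4 genes were called, with 3.45 for IL6, 1.94 for IL11, 2.88 for LIF and 1.63 for CLCF1, and LIFR changed sign to 0.25 (limma, adjusted p = 0.657).

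From 6 to 24 h in ΔCRE cells 2 genes were higher (IL6R by 0.55 and OSMR by 0.83) and 7 lower, where 22.1% of all features were higher and 27.5% lower. The lower ones were IL11 (-1.53), IL6 (-1.32), CLCF1 (-0.99), LIF (-0.98), LIFR (-0.39), IL6ST (-0.37) and STAT3 (-0.25). The last 3 calls rested on single libraries and on the scaling. With TPM those of IL6ST and LIFR were lost (limma, adjusted p = 0.139 and 0.0575). With quantile normalization those of IL6ST and STAT3 were lost (limma, adjusted p = 0.0532 and 0.0611). That of IL6ST was lost without ΔCRE 6 h replicate 2 or either ΔCRE 24 h library, that of LIFR without ΔCRE 6 h replicate 2 or ΔCRE 24 h replicate 1, and that of STAT3 without ΔCRE 6 h replicate 1 or ΔCRE 24 h replicate 2 (limma, adjusted p = 0.0562 to 0.152). SOCS3, at -0.16, missed the threshold (limma, adjusted p = 0.0635) and passed it without ΔCRE 24 h replicate 1 (limma, adjusted p = 0.0412) and with the replicate block (limma, adjusted p = 0.0279). TPM moved the share of higher calls over all features from 44.6% to 60.7%, and the median of the 10 genes was -0.38 against -0.032 over all features. The fit of all 12 libraries called 3 of the 10 genes (IL6, IL11 and CLCF1).

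The comparison of the genotypes asked which family genes differed between ΔCRE and WT cells at each time. At 24 h IL6 was lower in ΔCRE cells while the other 3 ligands, IL11, LIF and CLCF1, were higher. At 6 h IL11 and CLCF1 were higher and STAT3 was lower. At 0 h limma called 0 of the 10 genes at an adjusted p under 0.05. None of the 4 receptor chains passed the test at any of the 3 times. The measurements are of bulk RNA, in which fewer cells of a type and less RNA per cell cannot be told apart.

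At 0 h 0.657% of all features were higher and 1.03% lower in ΔCRE cells, and the median of the 10 genes was 0.079 against 0.0057 over all features. Of the 10 genes, 2 had an unadjusted p under 0.05, as had 15.0% of all features. IL6 was at 0.392 FPKM in the ΔCRE library against 0.740 and 0.774 in WT cells, a difference of -0.34 (limma, adjusted p = 0.266), which passed the adjusted threshold with a pseudocount of 0.1 (limma, adjusted p = 0.0331). SOCS3 was at 27.9 against 24.8 and 24.1 FPKM, a difference of 0.19 (limma, adjusted p = 0.313) that became -0.30 in the fit of all 12 libraries (limma, adjusted p = 0.397). For IL11, IL6ST and LIFR the ΔCRE library lay between the WT libraries.

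At 6 h 2 of the 10 genes were higher and 1 lower in ΔCRE cells, where 3.62% of all features were higher and 6.22% lower. The median of the 10 genes was 0.12 against 0.013 over all features. IL11 was at 490.9 and 501.8 FPKM in ΔCRE cells against 414.9 and 387.8 in WT cells, higher by 0.31 ± 0.06 (limma, adjusted p = 0.0212). CLCF1 was at 51.4 and 50.5 against 37.1 and 36.4, higher by 0.46 ± 0.07 (limma, adjusted p = 0.0042). STAT3 was at 33.5 and 30.5 against 40.4 and 39.9, lower, with a difference of -0.32 ± 0.06 (limma, adjusted p = 0.0160). In all 3 genes the ΔCRE and WT libraries did not overlap, but the share of all features without overlap was not computed.

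The calls of IL11 and STAT3 rested on single libraries. That of IL11 was lost without any 1 of the 4 libraries compared (limma, adjusted p = 0.0693 to 0.136), and that of STAT3 without WT 6 h replicate 1, WT 6 h replicate 2 or ΔCRE 6 h replicate 2 (limma, adjusted p = 0.0831 to 0.109). CLCF1 kept its call in each of these fits, and the fit of all 12 libraries called 0 of the 10 genes. The feature that carries CLCF1 also spans RAD9A and POLD4, so its FPKM is uncertain at each time. IL6, at 13.6 in both ΔCRE libraries against 15.2 and 16.5 FPKM in WT cells, did not overlap between the genotypes and did not pass the test (limma, adjusted p = 0.270). LIF, LIFR and SOCS3 also had an unadjusted p under 0.05, as had 24.0% of all features, with differences of 0.13, 0.33 and 0.22 (limma, adjusted p = 0.170, 0.0741 and 0.0680), and the libraries of the genotypes overlapped for IL6ST, IL6R and OSMR. With the replicate number as a block, LIFR and SOCS3 were called as well (limma, adjusted p = 0.0201 and 0.0266), and LIFR also with quantile normalization (limma, adjusted p = 0.0469).

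At 24 h 3 of the 10 genes were higher and 1 lower in ΔCRE cells, where 2.35% of all features were higher and 3.97% lower. The median of the 10 genes was 0.22 against 0.012 over all features. IL6 was at 5.22 and 4.48 FPKM in ΔCRE cells against 9.79 and 7.87 in WT cells, which is 54.9% of the WT mean and a difference of -0.74 ± 0.10 (limma, adjusted p = 0.0058). IL11 was at 179.7 and 163.6 against 90.5 and 84.1 FPKM, 1.97 times the WT mean and higher by 0.97 ± 0.06 (limma, adjusted p = 1.6e-04). The IL11 call was the 1 that also passed in the fit of all 12 libraries (limma, adjusted p = 0.0390), and it held without each library in turn.

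LIF was at 85.4 and 82.7 against 64.7 and 65.5 FPKM, higher by 0.36 ± 0.05 (limma, adjusted p = 0.0070), and CLCF1 at 26.8 and 23.6 against 18.7 and 18.8, higher by 0.41 ± 0.07 (limma, adjusted p = 0.0106). Neither ligand overlapped between the genotypes (the share of all features without overlap was not computed), but the calls rested on single libraries. The call of IL6 was lost without ΔCRE 24 h replicate 2 (limma, adjusted p = 0.0561), that of LIF without WT 24 h replicate 1 (limma, adjusted p = 0.0665), and that of CLCF1 without WT 24 h replicate 1, WT 24 h replicate 2 or ΔCRE 24 h replicate 1 (limma, adjusted p = 0.0541 to 0.0872). STAT3, at 27.2 and 26.3 against 32.3 and 30.1 FPKM, differed by -0.21 (limma, adjusted p = 0.0865), which passed the threshold with TPM (limma, adjusted p = 0.0336) and with the replicate block (limma, adjusted p = 0.0211). OSMR, at 34.2 and 35.9 against 28.5 and 30.7, differed by 0.24 (limma, adjusted p = 0.134). IL6R and SOCS3 overlapped between the genotypes, and over all features TPM moved the share of higher calls from 37.2% to 24.7%.

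**Figure D3:**
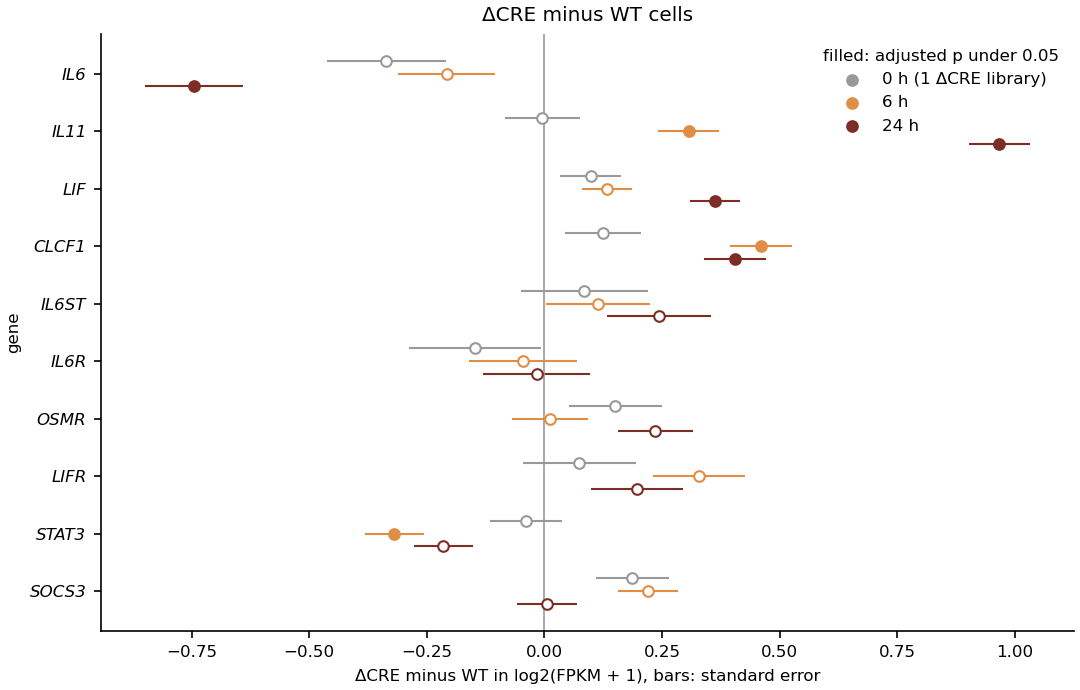
ΔCRE minus WT cells in log2(FPKM + 1) for the 10 genes at 0 h (grey, 1 ΔCRE library), 6 h (orange) and 24 h (dark red), with bars for 1 standard error; filled points had an adjusted p under 0.05. At 24 h IL6 lay at -0.74 and IL11 at 0.97, on opposite sides of 0, and the 4 receptor chains had open points at all times.

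Whether the genotype difference itself changed between 6 and 24 h was tested as an interaction. IL11 was the 1 gene of the 10 called, and its difference was larger at 24 h than at 6 h by 0.66 ± 0.09 (limma, adjusted p = 0.0468), where 0.142% of all features were called higher and 0.0178% lower. The median of the 10 genes was 0.067 against -0.000067 over all features. The call was lost without any 1 of the 10 WT and stimulated ΔCRE libraries (limma, adjusted p = 0.0511 to 0.204) and held without ΔCRE 0 h replicate 2. It was also lost without the filter, without the trend, in a fit of the groups compared and in the fit of all 12 libraries (limma, adjusted p = 0.0765, 0.0770, 0.0827 and 1). IL6, LIF and SOCS3 also had an unadjusted p under 0.05, as had 6.98% of all features, with -0.54, 0.23 and -0.21 (limma, adjusted p = 0.429, 0.561 and 0.701).

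FPKM is scaled to transcript length, so levels can be set side by side. IL11 and LIF ranked first and second in all 6 conditions, and IL6 ranked last at 0 h in both genotypes. At 24 h IL6 ranked above LIFR and IL6R in both genotypes. Most neighbours in the order did not overlap between libraries. In ΔCRE cells at 0 h they could not, because 1 library was used there. In WT cells those that overlapped were STAT3 and SOCS3 at 0 h, and STAT3 and OSMR as well as IL6R and LIFR at 24 h, and in ΔCRE cells STAT3 and CLCF1 at 24 h.

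In ΔCRE 0 h replicate 1, 9 of the 10 genes were under both values of WT cells at 0 h and STAT3 was over them. The share of all features under both values was not computed, so the count cannot be read as particular to these genes. IL6ST was at 1.87 FPKM, 15.8% of ΔCRE 0 h replicate 2, LIFR at 1.29 (22.9%) and OSMR at 6.71 (37.4%). LIF was at 14.8 FPKM (46.2%), SOCS3 at 13.7 (49.1%), CLCF1 at 12.7 (65.1%), IL6 at 0.273 (69.5%) and IL11 at 117.4 (82.9%). IL6R, at 0.905 FPKM (111.5%), and STAT3, at 27.9 (117.3%), were above replicate 2. The part that cells of another type had in these values was not tested.

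Over the 11 libraries, profiles of log2(FPKM + 1) were most alike for LIF and IL6ST (Pearson r = 0.964), IL11 and CLCF1 (r = 0.948) and IL6 and LIF (r = 0.934), and IL6 and SOCS3 ran opposite (r = -0.904). These values describe libraries that share time points and genotypes. Among the 11255 other features, those most like IL6 were SEMA4B (r = 0.996), NFKB2 (0.994), KDM6B (0.992), SSH1 (0.989) and SH3TC1 (0.989). Those most like IL11 were FAM107B (r = 0.981), CORO1C (0.980), PRDX6 (0.973), MGAT2 (0.973) and CCT5 (0.973), and those most like LIF were SDF2L1 (r = 0.995), B4GALT5 (0.994), PLK3 (0.993), SPHK1 (0.992) and HSP90B1 (0.992). NFKB2, which encodes a subunit of NF-kB, had mean FPKM of 11.5, 131.7 and 66.5 in WT cells and of 10.2, 112.3 and 50.9 in ΔCRE cells at 0, 6 and 24 h. SPHK1, sphingosine kinase 1, had 10.5, 60.6 and 24.5 in WT cells and 14.6, 77.8 and 33.4 in ΔCRE cells.

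The rest of the pathway was read from 5 fixed lists. Over all features, 23.3% were higher and 21.1% lower at 6 h than at 0 h in WT cells. In ΔCRE against WT cells 3.62% were higher and 6.22% lower at 6 h, and 2.35% and 3.97% at 24 h. Among other ligands and receptors of the family, 6 were tested, and OSM, IL27 and CNTFR were under the minimum of 1 FPKM. At 6 h in WT cells 2 were higher and 2 lower than at 0 h, with a list median of -0.11 against -0.0014 over all features. EBI3, the subunit shared by IL27 and IL35, went from 0.120 and 0.0625 to 4.59 and 5.94 FPKM (2.51), and IL27RA, the receptor chain for IL27, from 5.71 and 5.34 to 33.3 and 32.8 (2.39). IL31RA was lower (-0.58), as was the feature that CNTF shares with ZFP91 (-0.18), a call lost without either WT 6 h library, either WT 24 h library, either ΔCRE 24 h library, WT 0 h replicate 2 or ΔCRE 0 h replicate 2. In ΔCRE cells IL27RA was lower than in WT cells, at 22.8 and 20.9 FPKM at 6 h (-0.58; limma, adjusted p = 0.0018), and with a smaller difference at 24 h (-0.30; limma, adjusted p = 0.0351). The 24 h call of IL27RA was lost without any 1 of the WT 6 h, WT 24 h and ΔCRE 24 h libraries (limma, adjusted p = 0.0667 to 0.224), and no other gene of this list was called between the genotypes.

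Of 12 kinases, STATs and inhibitors, 10 were tested, and SOCS1 and CISH were under the minimum. At 6 h in WT cells 5 were higher and 3 lower, with a median of 0.17 against -0.0014 over all features. STAT5A, a STAT family member, went from 2.55 and 2.24 to 14.3 and 14.5 FPKM (2.18), and the kinases TYK2 (0.52) and JAK1 (0.49) were higher while JAK2 was lower (-0.42). The call of JAK2 was lost without WT 0 h replicate 2 or WT 6 h replicate 1 (limma, adjusted p = 0.0703 and 0.0638). STAT5A was also the 1 gene of the list called between the genotypes, lower in ΔCRE cells. It was at 6.98 and 6.55 FPKM in ΔCRE cells at 6 h, a difference of -0.99 (limma, adjusted p = 1.5e-04), and at 2.45 and 2.45 at 24 h against 4.73 and 4.56 in WT cells, a difference of -0.71 (limma, adjusted p = 0.0014).

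All 8 regulators of IL6 mRNA were tested, with a median of 0.77 at 6 h in WT cells. There 6 were higher and 1 lower, where 23.3% of all features were higher and 21.1% lower. CEBPB, a transcription factor that binds C/EBP motifs, went from 23.5 and 22.04 to 117.7 and 110.1 FPKM (2.27). ZC3H12A (1.88) and ZFP36 (1.80), which promote decay of IL6 mRNA, and ZFP36L1 (0.94), a relative of ZFP36, were higher as well. At 24 h limma called 0 of the 8 between the genotypes, where 5 had an unadjusted p under 0.05, as had 21.2% of all features. At 6 h it called 2 of the 8, where 3.62% of all features were higher and 6.22% lower. The 2 genes were named after their values were seen: ZFP36L2 was higher in ΔCRE cells (0.39; limma, adjusted p = 0.0098) and CEBPD was lower (-0.75; limma, adjusted p = 0.0364). Both calls were lost without single libraries. That of ZFP36L2 was lost without either WT 6 h library or ΔCRE 6 h replicate 2. That of CEBPD was lost without any 1 of the WT 0 h and WT 6 h libraries. Leaving out ΔCRE 6 h replicate 1 or ΔCRE 24 h replicate 2 also lost it. Both calls were lost in a fit of the groups compared (limma, adjusted p = 0.0870 and 0.0972). CEBPD also lost its call with quantile normalization and without the filter (limma, adjusted p = 0.0551 and 0.0864).

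Of 14 genes known as STAT3 targets, 13 were tested. BATF was at 0 in the 11 libraries of the fit and at 13.6 FPKM in ΔCRE 0 h replicate 1. At 6 h in WT cells the median of the list was 0.58. Where 23.3% of all features were higher and 21.1% lower, 4 genes of the list did not pass the test and 9 were higher. JUNB (2.61), a subunit of AP-1, MCL1 (1.11), an inhibitor of apoptosis, BCL3 (1.11), a cofactor of NF-kB, and IRF1 (0.84), an interferon regulatory factor, were among them. Between the genotypes 1 was higher and 3 lower at 6 h, where 3.62% of all features were higher and 6.22% lower. At 24 h 1 was higher and 1 lower, where 2.35% of all features were higher and 3.97% lower. Those outside the rule for named genes were named after their values were seen. At 6 h MCL1 was higher in ΔCRE cells (0.20; limma, adjusted p = 0.0499), and BCL6 (-0.46), BCL2L1 (-0.31) and FOSL2 (-0.31) were lower. At 24 h TIMP1, an inhibitor of metalloproteinases, was higher (0.71; limma, adjusted p = 0.0087) and FOSL2 was lower (-0.28). Each of these 6 calls was lost without at least 1 single library, that of BCL6 without WT 6 h replicate 1 alone and that of TIMP1 without WT 24 h replicate 2 or ΔCRE 24 h replicate 1. At 6 h the call of FOSL2 was lost without any 1 of the 4 libraries compared, that of BCL2L1 without either WT 6 h library, either WT 24 h library or ΔCRE 6 h replicate 2, and that of MCL1 without any 1 of the ΔCRE, WT 6 h and WT 24 h libraries. The 24 h call of FOSL2 was lost without any 1 of the 8 stimulated libraries, and also without the filter or the trend (limma, adjusted p = 0.0540 and 0.0566). MCL1 also lost its call with TPM, quantile normalization, a pseudocount of 0.1, a minimum of 5 FPKM and no trend (limma, adjusted p = 0.0527 to 0.192). In a fit of the groups compared all 6 calls were lost (limma, adjusted p = 0.0544 to 0.118). Of the 2 proteases that shed IL6R, ADAM17 was higher at 6 h in WT cells (0.68; limma, adjusted p = 1.4e-04), from 10.3 and 11.1 to 17.2 and 18.1 FPKM, ADAM10 was not called, and neither was called between the genotypes.

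**Figure D4:**
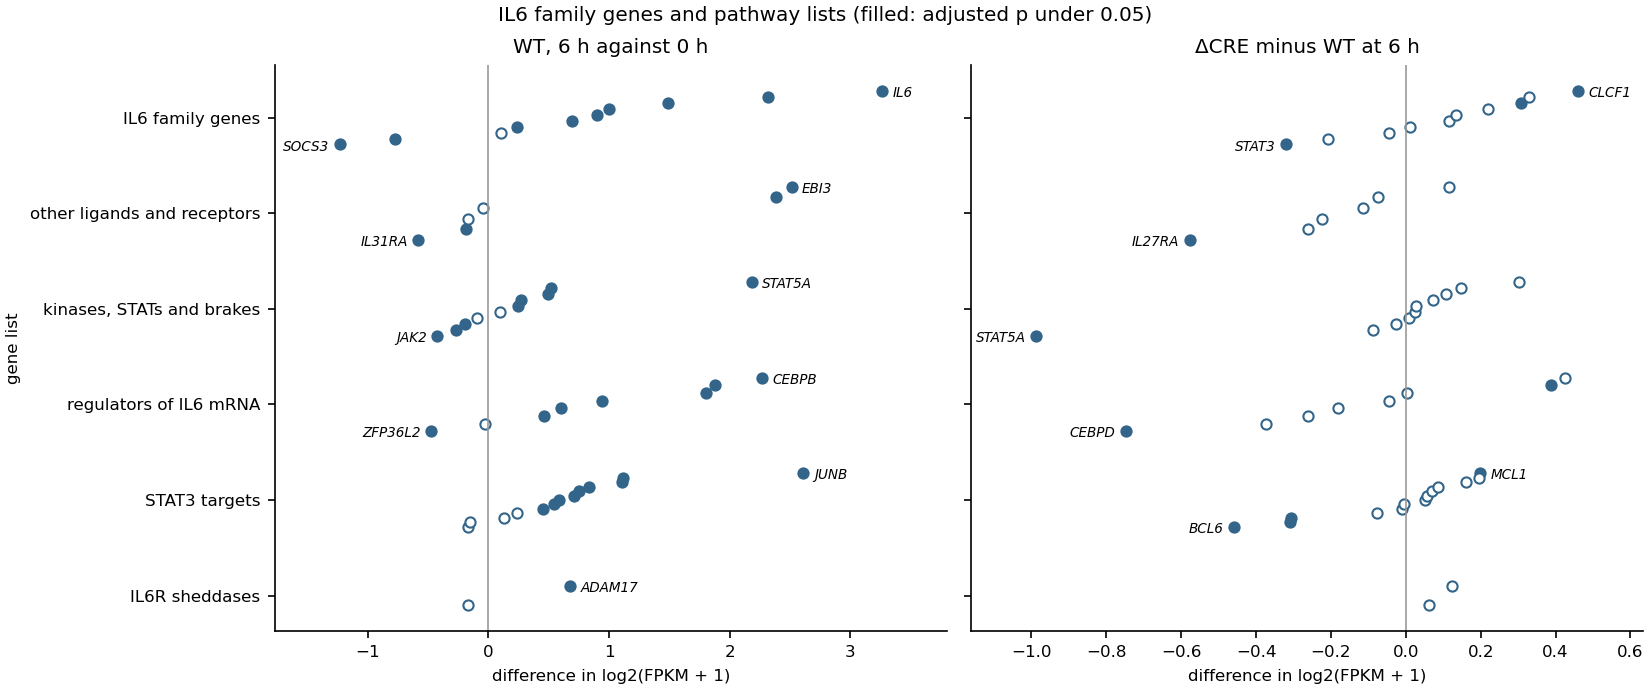
Differences in log2(FPKM + 1) of the 10 IL6 family genes and the tested genes of the 5 pathway lists, 1 point per gene, between WT cells at 6 and 0 h (left) and between ΔCRE and WT cells at 6 h (right); filled points had an adjusted p under 0.05 and the outermost called genes are named. JUNB (2.61) and IL6 (3.26) reached the right end of the left panel, and STAT5A (-0.99) the left end of the right panel.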

How the data were processed

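Total RNA of 12 samples was made into stranded mRNA libraries and sequenced on an Illumina NextSeq instrument. The authors mapped the fragments to hg19 with TopHat, estimated expression with Cufflinks and deposited 1 FPKM value per feature and library. Such values do not keep the fragment number, so sequencing depth is not known and counting intervals were not computed. Whether fragments were counted by strand or libraries scaled further is not given in the sources used here. The column names of ΔCRE 6 h and ΔCRE 0 h replicate 2 have a digit in place of a letter and were matched to the remaining labels.

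The deposited FPKM values were tested as log2(FPKM + 1) with limma 3.58.1 in R 4.3.3 (lmFit, eBayes with a trend, 6 groups, two-sided). The fit used 11 libraries, without ΔCRE 0 h replicate 1, and 11256 features, those whose mean FPKM reached 1. P-values were adjusted over all features (Benjamini-Hochberg, threshold 0.05). The code was tested on simulated data. The alternatives tried were no filter, a pseudocount of 0.1, a minimum of 5 FPKM, quantile normalization, TPM, no trend, a replicate block, all 12 libraries, only the groups compared, a fold of 2 and leaving out each library. The genes examined, the lists and the tests were chosen with earlier results of these data known. Genes named from a list were at most the 4 with the largest difference among those called at 6 h in WT cells, and the 5 features most like IL6, IL11 and LIF by Pearson r were named. Where several features carry 1 symbol, that with the highest mean was read. Cuffdiff was not run here. A listed gene is not reported here.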

Additional observations from a re-analysis of the deposited data

Results flagged for a closer look

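The difference of IL11 between ΔCRE and WT cells was larger at 24 h than at 6 h by 0.66 on the log2 scale (limma interaction, adjusted p = 0.0468, 1 of the 10 genes tested here). IL11 stood at 1.24 times the WT mean at 6 h and at 1.97 times at 24 h, and both ΔCRE libraries lay above both WT libraries at each time. The call was lost without any 1 of 10 libraries (limma, adjusted p = 0.0511 to 0.204), without the filter, without the trend, with only the groups compared and with all 12 libraries (limma, adjusted p = 0.0765 to 1).

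STAT3 was at 27.9 FPKM in ΔCRE 0 h replicate 1, a library left out of the tests except in the fit of all 12 libraries, above 24.9 and 24.1 FPKM in the WT libraries at 0 h. The other 9 genes lay below both WT libraries there, and the share of all features that lay below both was not computed.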

How the results depend on the processing

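With a fold change of at least 2 required, 5, 4 and 2 of the 10 genes were called in WT cells (6 against 0 h, 24 against 0 h, 24 against 6 h), 5 and 2 in ΔCRE cells (6 against 0 h, 24 against 6 h), and 0 between the genotypes at 6 h, at 24 h and in the interaction. With all 12 libraries the counts were 4 (WT, 24 against 0 h), 3 (WT, 24 against 6 h), 4 and 3 (ΔCRE), 0 at 6 h, 1 at 24 h and 0 in the interaction. LIFR then reversed to 0.25 between 6 and 0 h in ΔCRE cells and SOCS3 to -0.30 between the genotypes at 0 h. Fitting only the groups compared called 1 gene at 6 h, 1 at 24 h and 0 in the interaction, where no filter and eBayes without a trend also called 0. A pseudocount of 0.1 called 1 gene at 0 h. Leaving out each library gave 8 to 9 (WT, 6 against 0 h), 8 to 9 (WT, 24 against 0 h), 7 to 9 (WT, 24 against 6 h), 7 to 8 (ΔCRE, 6 against 0 h), 7 to 9 (ΔCRE, 24 against 6 h), 0 to 0 at 0 h, 1 to 3 at 6 h, 2 to 4 at 24 h and 0 to 1 in the interaction. The cause of these changes was not tested. Deviations of same-numbered replicates had r between -0.068 and 0.202, over 0.1 in 2 of 10 pairs of conditions, and the main fit did not pair them. Whether the numbers pair the samples is not given in the sources used here. With the number as a block, 5 genes were called between the genotypes at 6 h. For the 63 differences of the 10 genes with an unadjusted p under 0.05, 1128 of 1231 alternative values kept their direction and side of the threshold, 86 lost the call, 15 gained it and 2 reversed. For 45 called differences of listed genes and ETS1, 761 of 893 kept the call, 132 lost it and 0 reversed. With 2 replicates and unknown depth, a difference that was not called is not shown to be absent.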
